A study of Rattus norvegicus with 19 samples.

Results

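The respiratory chain of mitochondria was represented on the array by 86 nuclear genes out of 14217 genes with a single annotated symbol. They were taken in by name, as all genes whose symbol starts with Ndufa, Ndufb, Ndufc, Ndufs, Ndufv, Uqcr, Atp5 or one of the Cox subunit stems, together with the genes of succinate dehydrogenase. This set was chosen with earlier results of these data known. These genes were covered by 96 probe sets, and each gene was read from its probe set with the highest mean. By complex, 40 belonged to complex I, 4 to complex II, 7 to complex III, 19 to complex IV and 16 to the ATP synthase. The name rule also took in genes that are not structural subunits: 6 complex I assembly factors (the Ndufaf genes), the ATP synthase inhibitor Atp5if1 and a Cox6c pseudogene. A further 9 probe sets that name several genes were left out. Cytochrome c, Cox7a2, Atp5mc1, Atp5mc2, Uqcrb, Ndufs5 and Ndufa10 thus had no probe set of their own. Cox5a was read from a dimmer probe set than the one left out. None of the 13 subunits encoded by the mitochondrial genome was among the annotated genes.

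Complexes I and II pass electrons through ubiquinone to complex III, from where cytochrome c carries them to complex IV, and the proton gradient built on the way drives the ATP synthase. Many of the small nuclear subunits are accessory and surround the catalytic core. Several complex IV subunits exist as a widely expressed form and a form typical of muscle, lung or testis. The paraventricular nucleus (PVN) and the supraoptic nucleus (SON) of the hypothalamus hold the large neurones that secrete vasopressin and oxytocin.

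RNA was measured on Affymetrix Rat Genome 230 2.0 arrays in 4 groups: SON of spontaneously hypertensive rats (SHR, 4 arrays), SON of normotensive Wistar Kyoto rats (WKY, 5 arrays), PVN of SHR (5 arrays) and PVN of WKY (5 arrays). The labels give all rats as untreated and aged 12 weeks, and the study describes them as inbred males. Each array carried RNA of pooled dissected nuclei after linear amplification, so the spread between arrays is that between pools and cannot be traced to single animals. Bulk signals cannot tell fewer cells of a type from less RNA per cell.

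Values are log2 signals after each array was centred on its median. Before centring, array medians ran between 35.9 and 46.5. The mean correlation of an array with its own group was between 0.954 and 0.980, and no array repeated another. Of 5 markers of the secretory neurones, vasopressin and oxytocin among them, 2 were higher in the SON of SHR and 3 in that of WKY, and all 5 passed the filter on low signals. Their summed signal ran between 12904 and 21439 in SON arrays and between 8146 and 13349 in PVN arrays. Markers of other cells moved with the nucleus too: 10 of 10 meningeal and fibroblast markers were higher and 6 of 6 ependymal markers lower in the SON of both strains. The summed signal of the 10 meningeal markers was between 3509 and 9552 in SON arrays of SHR and between 426 and 475 in their PVN arrays. In WKY it was between 2971 and 4638 in SON arrays and between 384 and 492 in PVN arrays. Of 14 neurone markers 1 was higher and 5 lower in the SON of SHR, and 2 higher and 4 lower in that of WKY. Oligodendrocyte markers were higher for 5 of 9 in SHR, while in WKY 0 were higher and 1 was lower, and endothelial markers were higher for 3 of 9 in SHR and 6 of 9 in WKY. Of 9 astrocyte markers 3 were higher and 1 lower in each strain, of 7 microglia markers 2 were higher in SHR and 1 lower in WKY, and of 2 blood markers 2 were higher in SHR and 1 in WKY. Between strains, 2 of 10 meningeal markers were higher in SON of SHR and 2 of 6 ependymal markers in PVN of SHR. Over all probe sets tested, 13.7% were higher and 15.7% lower in the SON of SHR, and 13.2% and 13.7% in that of WKY. The part of these markers in the results below was not tested, and further values stand beside Cox6a2.

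More members were called between the nuclei than between the strains, and the same held for all probe sets. Between strains, 1.14% of all probe sets were higher and 1.22% lower in PVN of SHR. In SON of SHR 1.29% were higher and 2.33% lower. In SHR, 25 of 82 members tested were higher in the SON than in the PVN (limma, adjusted p under 0.05) and 0 were lower, which is 30.5% higher against 13.7% of all probe sets, while 15.7% of all probe sets were lower. In WKY, 13 members were higher and 1 was lower, 15.9% against 13.2% of all probe sets higher and 13.7% lower. The share of members called higher in WKY was near that of all probe sets. At an unadjusted p under 0.05, 35 members were higher and 0 lower in SHR (42.7% higher, against 19.0% and 21.2% of all probe sets), and 22 were higher and 1 lower in WKY (26.8% higher, against 18.7% and 19.7%). In all, 73 of 82 differences were above 0 in SHR (89.0% against 48.0%) and 67 of 82 in WKY (81.7% against 48.8%). SON arrays lay wholly above PVN arrays for 15 members in SHR (18.3%, against 10.4% of all probe sets above and 12.6% below) and for 11 in WKY (13.4%, against 10.9% above and 11.1% below). The median member difference was 0.22 in SHR and 0.14 in WKY on the log2 scale, against -0.02 and -0.01 over all probe sets tested. It stayed above 0 after quantile normalization, at 0.12 and 0.05, with 23 higher and 1 lower in SHR and 17 higher and 1 lower in WKY, when 17.7% of all probe sets were higher and 18.4% lower in SHR, and 16.4% higher and 17.2% lower in WKY. Of the members called higher, 12 were shared, which is 48.0% of those called in SHR and 92.3% of those called in WKY. These 2 comparisons use separate arrays, and the differences of the 81 members other than Cox6a2 correlated between the strains with Pearson's r = 0.80, against 0.89 over all 17095 probe sets. Only Cox6a2 passed a 2-fold limit, which 2.89% of all probe sets passed upwards in SHR and 2.34% in WKY.

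The counts depended on single arrays. In SHR the count was 42 without PVN replicate 1, and 15 without PVN replicate 5 or without SON replicate 2. In WKY the total of 14 became 4 without SON replicate 4, 6 without PVN replicate 1, 8 without PVN replicate 4, and 9 without PVN replicate 5 or SON replicate 5.

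**Figure D1:**
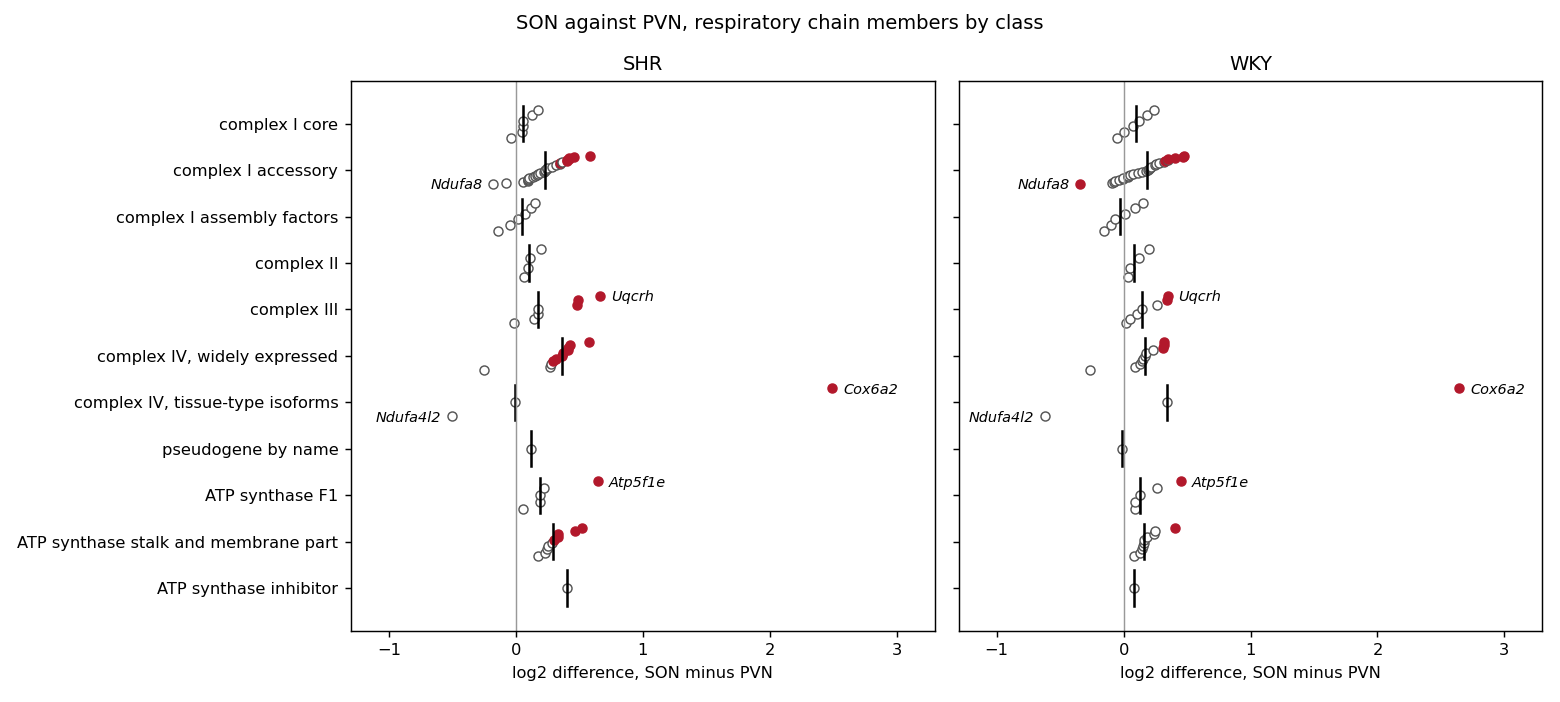
SON minus PVN log2 difference of each member tested (points, x axis) by class (y axis) in SHR on the left and WKY on the right. Red points passed an adjusted p of 0.05 and black bars are class medians. Most points lie right of 0, and Cox6a2 lies apart at 2.49 in SHR and 2.64 in WKY.

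Members that rose together in the SON were also compared by promoter. RefSeq promoters (assembly GRCr8) were at hand for 78 of the 86 members, and the 250 bases before the start were searched on both strands for the cores bound by NRF1 (GCGCA, any base, then GCGC) and GABPA (CCGGAAG), long known as regulators of respiratory genes, for a YY1 core (AANATGGCG) and for an E-box (CAGCTG). NRF1 matches were in 12 promoters (15.4%, against 5.07% of the promoters of 21851 protein-coding genes and 3.75% of all promoters). GABPA matches were in 21 (26.9%, against 9.01% and 7.27%). YY1 matches were in 3 (3.85%, against 1.56% and 1.38%) and E-boxes in 8 (10.3%, against 11.9% and 12.0%). Of the 22 members called higher in SON of SHR that had a promoter, 4 held an NRF1 match (18.2%), 10 a GABPA match (45.5%), 1 a YY1 match (4.55%) and 3 an E-box (13.6%). Shown are the promoters of 5 members on which the results turn, from 5′ to 3′ up to the base before the start, with matches in capitals.
Cox6a2: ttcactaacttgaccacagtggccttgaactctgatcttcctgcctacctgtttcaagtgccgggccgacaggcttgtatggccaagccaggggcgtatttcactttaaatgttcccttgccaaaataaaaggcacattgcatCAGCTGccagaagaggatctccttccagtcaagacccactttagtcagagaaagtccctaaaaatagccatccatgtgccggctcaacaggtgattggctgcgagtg
Uqcrh: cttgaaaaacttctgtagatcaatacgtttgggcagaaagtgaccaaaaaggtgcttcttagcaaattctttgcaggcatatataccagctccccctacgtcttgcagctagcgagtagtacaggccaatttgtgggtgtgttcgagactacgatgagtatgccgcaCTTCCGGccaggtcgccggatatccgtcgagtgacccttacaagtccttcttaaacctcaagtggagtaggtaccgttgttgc
Ndufa1: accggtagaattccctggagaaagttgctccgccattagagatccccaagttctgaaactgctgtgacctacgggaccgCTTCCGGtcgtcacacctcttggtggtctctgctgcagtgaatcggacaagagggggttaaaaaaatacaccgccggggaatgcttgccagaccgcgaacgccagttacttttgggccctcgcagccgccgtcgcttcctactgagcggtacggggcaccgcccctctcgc
Ndufv3: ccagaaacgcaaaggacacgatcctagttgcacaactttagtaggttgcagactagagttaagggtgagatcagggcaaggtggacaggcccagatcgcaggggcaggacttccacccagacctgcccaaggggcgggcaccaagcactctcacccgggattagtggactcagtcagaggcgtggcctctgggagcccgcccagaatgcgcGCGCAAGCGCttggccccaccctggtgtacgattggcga
Cox7b: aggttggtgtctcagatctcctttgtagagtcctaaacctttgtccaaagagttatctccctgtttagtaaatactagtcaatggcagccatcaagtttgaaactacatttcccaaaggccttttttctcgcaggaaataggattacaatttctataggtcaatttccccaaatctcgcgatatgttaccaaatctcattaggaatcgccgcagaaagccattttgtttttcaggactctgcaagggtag
The Cox6a2 sequence is chr1:192219717-192219966 on the minus strand, and its E-box, a motif bound by muscle and neuronal helix-loop-helix factors, begins 107 bases before the start. Uqcrh (chr5:134790883-134791132, minus strand) and Ndufa1 (chrX:121293556-121293805, minus strand) each hold a GABPA match, 83 and 171 bases before the start, read on the opposite strand. Ndufv3 (chr20:9613536-9613785, plus strand) holds an NRF1 match 39 bases before the start. Cox7b (chrX:75148786-75149035, plus strand) holds none of these motifs. A match describes the letters only and was not tested for binding.

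Cox6a2, the heart and skeletal muscle form of complex IV subunit VIa, was the member with the largest difference between the nuclei. Its log2 signals were 6.53, 6.33, 6.14 and 5.78 in SON of SHR, against 3.46, 4.28, 4.24, 4.49 and 2.05 in PVN of SHR. In WKY they were 5.41, 5.70, 5.80, 5.99 and 5.24 in SON, against 2.59, 3.51, 3.73, 2.19 and 2.92 in PVN. Every SON array was above every PVN array, in both strains. The SON was higher by 2.49 ± 0.38 (SE) in SHR (limma adjusted p = 4.76e-05) and by 2.64 ± 0.36 in WKY (adjusted p = 1.29e-05). Cox6a2 passed the filter on low signals through the SON alone, where it is high, and was also called with no filter. Its PVN signals lay under the filter and reached close to the floor of 1.91, so the size of the difference is uncertain: on the scale log2(value + 16) the differences were 1.56 and 1.43, still called.

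Its widely expressed counterpart Cox6a1 averaged 11.27 ± 0.06 (SD, n = 4) in SON and 10.85 ± 0.24 (SD, n = 5) in PVN of SHR, a difference of 0.41 (limma adjusted p = 0.00880) that was not called after quantile normalization. In WKY, Cox6a1 differed by 0.17 (adjusted p = 0.244). Marker lists of muscle were added after these values were seen. Of 9 skeletal muscle markers on the array, 3 passed the filter and 0 were called in either strain. Of 5 heart muscle markers, 2 passed the filter. Tnnt2 was higher in the SON by 2.05 in SHR and 1.96 in WKY (limma adjusted p = 1.8e-07 and 1.63e-07). Nppa was lower, with differences of -1.78 and -1.65 (adjusted p = 0.000557 and 0.000712). Untested Tnni3 averaged 2.39 in SON and 5.20 in PVN of SHR, and 2.07 and 5.10 in WKY. Untested Myh6 averaged 3.76 and 4.01 in SHR, and 4.13 and 3.61 in WKY. Myl7, also untested, averaged 2.92 and 2.60 in SHR, and 3.61 and 3.23 in WKY. Smooth muscle markers were higher in the SON for 5 of 5 tested in SHR and 3 of 5 in WKY, against 13.7% and 13.2% of all probe sets. Their summed signal ran between 512 and 1309 in SON arrays and between 222 and 280 in PVN arrays of SHR, and between 292 and 633 in SON arrays and between 236 and 272 in PVN arrays of WKY. Their part in the Cox6a2 difference was not tested.

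None of the other tissue-type isoforms that passed the filter was called between the nuclei. Cox7a1, the muscle form of subunit VIIa, averaged 5.58 ± 0.43 in SON and 5.59 ± 0.57 in PVN of SHR (SD, n = 4 and 5), and its differences were -0.01 and 0.34 (limma adjusted p = 0.989 in SHR and 0.315 in WKY). Ndufa4l2, a relative of Ndufa4 known to rise in hypoxia, had differences of -0.50 in SHR and -0.62 in WKY (adjusted p = 0.256 and 0.137). Cox4i2 (the lung-type form), Cox6b2 and Cox7b2 (testis-type forms) and Cox8b (a muscle form) stayed under the filter in every comparison of the main analysis. With no filter, Cox6b2 was higher in the SON of SHR by 0.70 (adjusted p = 0.0115) and differed by -0.13 in WKY (adjusted p = 0.68), and the other 3 were not called in either strain (adjusted p between 0.196 and 0.969). Cox8b was at the floor of 1.91 on 3 of 4 SON arrays and 5 of 5 PVN arrays of SHR. So of 7 tissue-type forms 3 passed the filter and 1 of them, Cox6a2, was called, while with no filter Cox6b2 was called as well in SHR.

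Among the widely expressed complex IV subunits, 8 of 11 were higher in the SON of SHR (72.7%, against 13.7% of all probe sets). In the SON of WKY 3 of 11 were higher (27.3%, against 13.2%). Among all probe sets with a mean log2 signal of at least 10, the shares were 36.2% in SHR and 19.6% in WKY. Cox5b, Cox6a1, Cox6c, Cox7a2l and Cox8a were among those called in SHR, and after quantile normalization they were not called. Cox7b, a small subunit of the membrane part, had 11.31, 11.45, 11.33 and 11.35 in SON of SHR, against 11.05, 10.94, 10.78, 10.54 and 10.62 in PVN of SHR. In WKY it had 11.36, 11.28, 11.30, 11.79 and 11.43 in SON, against 11.07, 11.17, 11.13, 11.11 and 11.07 in PVN. The nuclei did not overlap in either strain. Cox7b was higher in the SON by 0.58 ± 0.11 in SHR (limma adjusted p = 0.000714) and by 0.32 ± 0.11 in WKY (adjusted p = 0.0313). In WKY the call was lost without SON replicate 4 (0.23, adjusted p = 0.0995) or 5, or without PVN replicate 1, 4 or 5. Cox6b1, which faces the intermembrane space, was higher by 0.43 and 0.32 (adjusted p = 0.00772 and 0.0344), and Cox7a2l, which joins complexes III and IV, by 0.32 and 0.31 (adjusted p = 0.0315 and 0.029). In WKY the calls of both were lost without SON replicate 4 (adjusted p = 0.101 and 0.0881) or PVN replicate 1, 4 or 5, and that of Cox6b1 also without SON replicate 5. In SHR the call of Cox7a2l was lost without PVN replicate 3, 4 or 5 or SON replicate 1, 3 or 4 (adjusted p up to 0.081) and after quantile normalization (0.0812). Cox8a was called at 0.29 in SHR (adjusted p = 0.046), but after quantile normalization the difference was -0.06 (adjusted p = 0.422), and the call was lost without any single array but PVN replicates 1 and 2 (adjusted p up to 0.119). Cox4i1, Cox6c and Ndufa4, which is now counted with complex IV, differed by 0.28, 0.37 and 0.27 in SHR, of which only Cox6c passed (adjusted p = 0.0186), with 0.02 after quantile normalization (adjusted p = 0.794).

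In complex III, 3 of 7 members were higher in the SON of SHR (42.9%, against 13.7% of all probe sets). In the SON of WKY 2 of 7 were higher (28.6%, against 13.2%). For probe sets with a mean log2 signal of at least 10 the shares were 36.2% in SHR and 19.6% in WKY. Uqcrh, the hinge protein that lies next to cytochrome c1, had 11.14, 11.34, 11.23 and 11.17 in SON of SHR, against 10.89, 10.69, 10.60, 10.21 and 10.40 in PVN of SHR. In WKY the values were 11.21, 11.10, 11.29, 11.60 and 11.15 in SON, against 10.91, 11.00, 10.92, 10.95 and 10.84 in PVN. All SON arrays were above all PVN arrays within each strain. The difference was 0.66 ± 0.12 in SHR (1.59-fold, limma adjusted p = 0.00037) and 0.35 ± 0.12 in WKY (1.27-fold, adjusted p = 0.0318). Uqcrh was called in 17 of 17 alternatives in SHR and in 11 of 18 in WKY, where it was lost without SON replicate 3 or 4 or PVN replicate 1, 3, 4 or 5 (adjusted p up to 0.1). The other 2 members called in SHR, named after their values were seen, were the small subunits Uqcrq (0.49, adjusted p = 0.00356) and Uqcr10 (0.48, adjusted p = 0.00414).

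In complex I, 7 of 28 accessory subunits were higher in the SON of SHR (25.0%, against 13.7% of all probe sets). In the SON of WKY 5 of 28 were higher (17.9%, against 13.2%) and 1 lower. Probe sets with a mean log2 signal of at least 10 had shares of 36.2% in SHR and 19.6% in WKY. Of 6 core subunits and 6 assembly factors 0 were called in either strain, and the difference between these classes was not tested. At an unadjusted p under 0.05 those last 2 classes also gave 0. Ndufa1, a short accessory protein of the membrane arm, had 11.46, 11.65, 11.46 and 11.39 in SON of SHR, against 11.19, 11.05, 10.85, 10.71 and 10.72 in PVN of SHR. In WKY it had 11.59, 11.41, 11.47, 11.97 and 11.66 in SON, against 11.06, 11.20, 11.25, 11.14 and 11.09 in PVN. The nuclei did not overlap. Its difference was 0.58 ± 0.12 in SHR (limma adjusted p = 0.000936) and 0.47 ± 0.11 in WKY (1.39-fold, adjusted p = 0.00352), called in all 17 and all 18 alternatives. Ndufb6, also of the membrane arm, was higher by 0.42 and 0.41 (adjusted p = 0.032 and 0.0291). Its call was lost in SHR without SON replicate 2 or 3 or PVN replicate 4 or 5 (adjusted p up to 0.102), and in WKY without SON replicate 4 or PVN replicate 1 (0.0833 and 0.0842).

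Ndufa8, an accessory subunit on the intermembrane side, went the other way. In WKY its log2 signals were 10.29, 10.21, 10.02, 10.34 and 10.15 in SON, against 10.52, 10.58, 10.60, 10.50 and 10.50 in PVN, with no overlap. The difference was -0.34 ± 0.11 (limma adjusted p = 0.0207), called in 17 of 18 alternatives and lost without SON replicate 3 (adjusted p = 0.0551). In SHR it had 10.09, 10.40, 9.96 and 10.01 in SON, against 10.56, 10.36, 10.32, 10.02 and 10.20 in PVN. Those arrays overlapped and the difference of -0.18 was not called (adjusted p = 0.246), although it was after quantile normalization (adjusted p = 0.0056).

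Of succinate dehydrogenase, complex II, no subunit was called between the nuclei under median centring. The differences of Sdha (the flavoprotein), Sdhb (the iron-sulphur subunit), Sdhc and Sdhd (the membrane anchors) were 0.06, 0.20, 0.11 and 0.10 in SHR, with limma adjusted p values between 0.315 and 0.746. In WKY they were 0.03, 0.12, 0.05 and 0.20, with adjusted p values between 0.15 and 0.874. Sdhd was higher in the SON of WKY after quantile normalization (0.16, adjusted p = 0.0248), and also when the deposited values were used without centring (0.19, adjusted p = 0.0175).

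Of the ATP synthase, 5 of 10 stalk and membrane subunits were higher in the SON of SHR and 1 of 10 in the SON of WKY, and 1 of 5 subunits of the F1 part was higher in each strain. That subunit was Atp5f1e, the epsilon subunit of the central stalk. It had 11.02, 11.14, 10.95 and 10.97 in SON of SHR, against 10.77, 10.57, 10.33, 10.16 and 10.05 in PVN of SHR. In WKY it had 11.03, 10.86, 10.88, 11.52 and 11.08 in SON, against 10.58, 10.68, 10.73, 10.62 and 10.49 in PVN. Neither strain showed overlap. The difference was 0.64 ± 0.14 in SHR (1.56-fold, limma adjusted p = 0.00173) and 0.45 ± 0.13 in WKY (1.37-fold, adjusted p = 0.0152), a call lost in WKY without SON replicate 4 (0.34, adjusted p = 0.0502). Atp5mc3, a source of the membrane ring subunit c, differed by 0.24 and 0.14 (adjusted p = 0.0936 and 0.322). A second, dimmer probe set of the inhibitor Atp5if1 was called lower in the SON of WKY (-0.48, adjusted p = 0.0459). The brighter Atp5if1 probe set was not called in WKY (0.08, adjusted p = 0.715). The class medians of the F1 part, 0.19 in SHR and 0.13 in WKY, became 0.02 and -0.03 after quantile normalization, a change of sign in WKY.

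**Figure D2:**
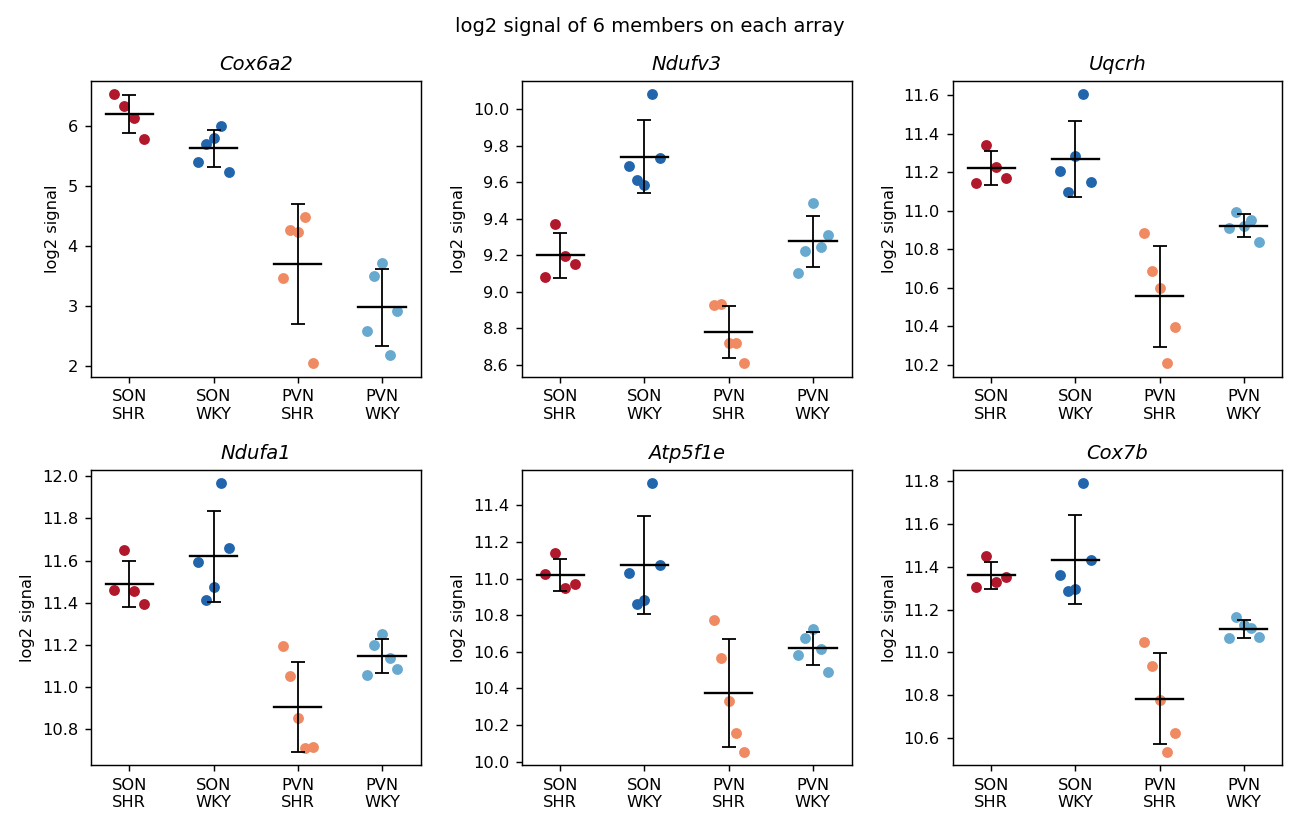
log2 signal (y axis) of 6 members on every array, with group mean and SD, in SON of SHR, SON of WKY, PVN of SHR and PVN of WKY (x axis). Cox6a2, Uqcrh, Ndufa1, Atp5f1e and Cox7b separate the nuclei within each strain, while Ndufv3 also separates the strains within each nucleus.

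Between the strains 1 member was called in each nucleus. In the PVN, 0 of 81 members were higher and 1 was lower in SHR (limma, adjusted p under 0.05), against 1.14% and 1.22% of all probe sets. In the SON, 0 of 81 were higher and 1 was lower, against 1.29% and 2.33%. The single member lower in each nucleus, read from its probe set with the highest mean, was Ndufv3, an accessory subunit of the flavoprotein part of complex I. A second, dimmer probe set of the inhibitor Atp5if1 was also called lower in PVN of SHR (-0.51, limma adjusted p = 0.0178). The brighter Atp5if1 probe set was not called there (-0.27, adjusted p = 0.461). Without the adjustment, at p under 0.05, 0 members were higher and 16 lower in the PVN (19.8% lower, against 5.38% of all probe sets higher and 8.13% lower), and 1 was higher and 3 lower in the SON (3.7% lower, against 6.47% higher and 12.9% lower). SHR arrays lay wholly below WKY arrays for 4 members in the PVN (4.94%, against 2.52% of all probe sets below and 1.85% above) and for 2 in the SON (2.47%, against 6.94% below and 2.89% above).

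Ndufv3 had log2 signals of 9.08, 9.37, 9.19 and 9.15 in SON of SHR, against 9.69, 9.61, 9.58, 10.08 and 9.74 in SON of WKY. In the PVN it had 8.93, 8.93, 8.72, 8.72 and 8.61 in SHR, against 9.11, 9.22, 9.49, 9.25 and 9.31 in WKY. SHR arrays lay below all WKY arrays in both nuclei. The difference was -0.54 ± 0.12 in the SON (limma adjusted p = 0.0289) and -0.49 ± 0.11 in the PVN (adjusted p = 0.0225). The sign held in every alternative, with differences between -0.60 and -0.41 in the SON and between -0.54 and -0.44 in the PVN, but the call held in 10 of 18 and 11 of 19 alternatives. It was lost in the SON without SHR replicate 1, 3 or 4 or WKY replicate 1 or 5, and in the PVN without SHR replicate 3 or 5 or WKY replicate 2, 3, 4 or 5, with adjusted p values up to 0.0939 and 0.0848 over all alternatives. A second, dimmer Ndufv3 probe set differed by 0.58 in the SON and 0.19 in the PVN (adjusted p = 0.365 and 0.703), so the probe sets did not agree in sign. The probe set that was called is of a type that can bind several transcripts of a gene. By that probe set Ndufv3 was also higher in the SON than in the PVN, by 0.42 in SHR and 0.47 in WKY (adjusted p = 0.00818 and 0.00267). The dimmer probe set went the other way, by -0.10 in SHR and -0.49 in WKY, and was not called (adjusted p = 0.823 and 0.196).

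Sdha and Cox7a2l had negative differences in both nuclei that did not pass the adjusted test. Sdha had 9.54, 9.76, 9.66 and 9.62 in SON of SHR, against 9.94, 9.95, 9.69, 10.10 and 9.93 in SON of WKY. In the PVN it had 10.08, 9.41, 9.62, 9.34 and 9.45 in SHR, against 9.87, 9.74, 9.98, 9.95 and 9.91 in WKY. The strains overlapped in both nuclei. Its difference was -0.28 ± 0.10 in the SON and -0.31 ± 0.13 in the PVN (limma adjusted p = 0.164 and 0.318). Without PVN replicate 1 of SHR, Sdha was called lower in the PVN (-0.44, adjusted p = 0.0214). Cox7a2l differed by -0.26 in the SON and -0.27 in the PVN (adjusted p = 0.195 and 0.312). For Cox6a2 the difference was 0.57 ± 0.18 in the SON (adjusted p = 0.104), with overlapping arrays, and it was not tested in the PVN. For Uqcrh the difference was -0.05 in the SON (adjusted p = 0.859) and -0.37 in the PVN (adjusted p = 0.173).

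**Figure D3:**
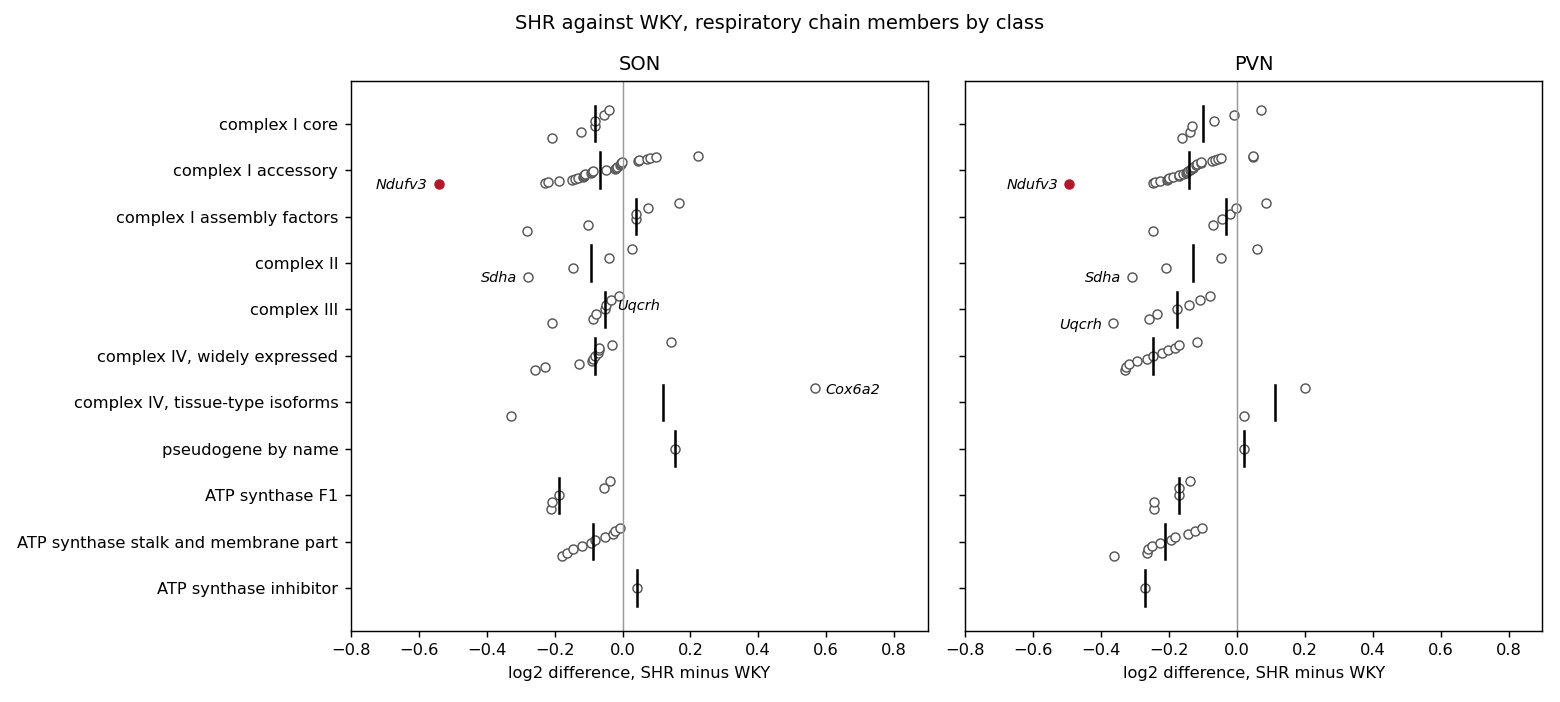
SHR minus WKY log2 difference of each member tested (points, x axis) by class (y axis), in the SON on the left and the PVN on the right. The red point in each panel is Ndufv3, the member called, at -0.54 and -0.49, and black bars are class medians.

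Below the threshold, members leaned to one side in the PVN. There 73 of 81 differences were below 0 (90.1% against 58.3% of all probe sets), with a median of -0.16 against -0.04, but after quantile normalization 49 were below 0 and the median was -0.02. In the SON 66 of 81 were below 0 (81.5% against 58.6%), with a median of -0.08 against -0.04, and after quantile normalization 54 were above 0 with a median of 0.04. Bright probe sets as a whole leaned the same way. Of 577 probe sets with a mean log2 signal of at least 10, a limit chosen after the values were seen, the median was -0.19 in the PVN, while 45 members above that limit had a median of -0.18. Between SON and PVN of SHR the 577 probe sets had a median of 0.20 with 36.2% called higher, and the 45 members had a median of 0.28 with 18 called higher (40.0%). In SHR after quantile normalization the 577 probe sets had a median of 0.01 with 24.1% called higher and 24.4% lower, and the 45 members a median of 0.11 with 31.1% higher and 2.22% lower. Between SON and PVN of WKY the 577 probe sets had a median of 0.13 with 19.6% called higher. There the 45 members had a median of 0.17 with 9 called higher and 1 lower, a share higher near that of the 577. After quantile normalization the WKY medians were -0.0017 for the 577 probe sets and 0.04 for the 45 members. Then 18.5% of the 577 were higher and 20.3% lower, against 22.2% and 2.22% of the 45 members.

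**Figure D4:**
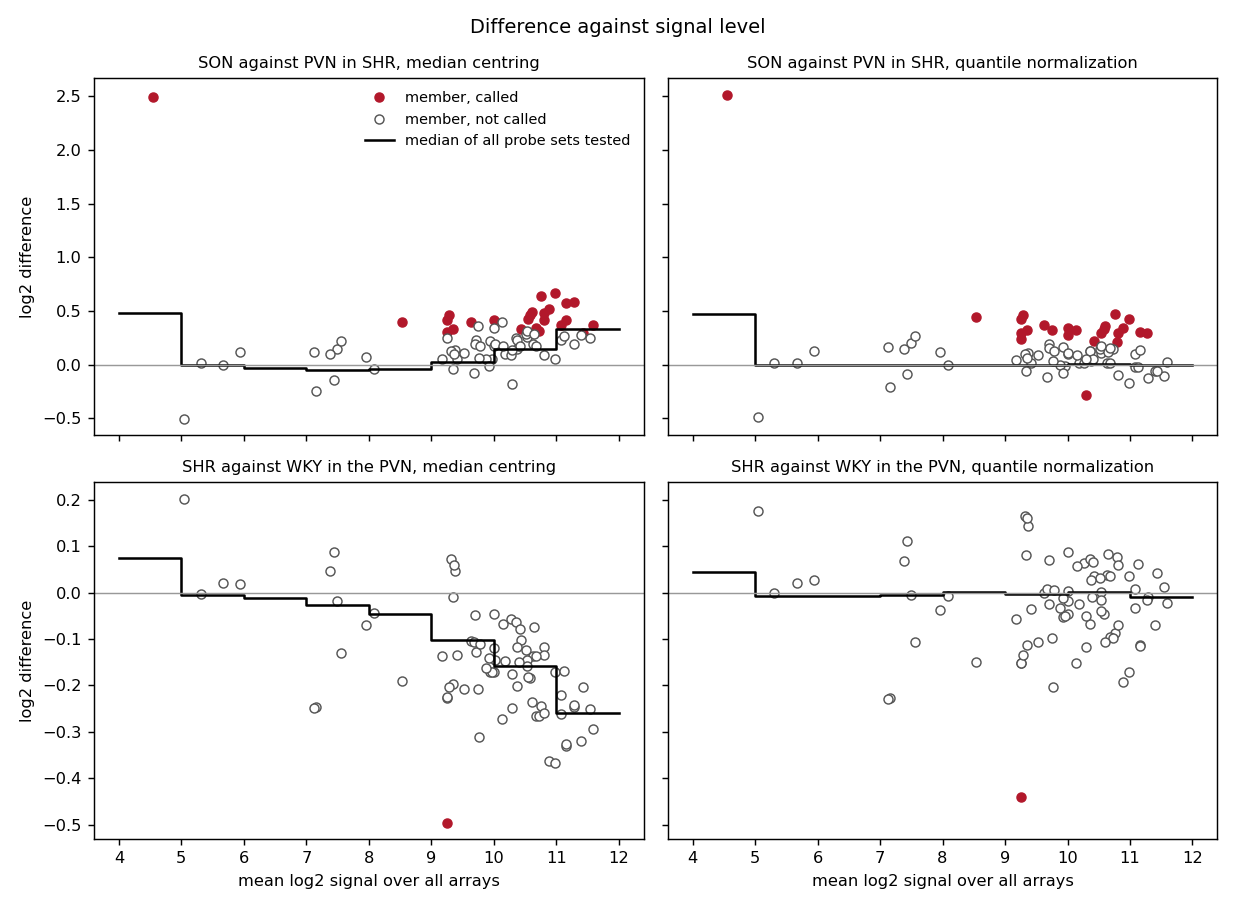
log2 difference of members (points; red, called) against their mean log2 signal over 19 arrays, for SON against PVN in SHR (top) and SHR against WKY in the PVN (bottom), under median centring (left) and quantile normalization (right). The black line is the median of all probe sets tested in steps of 1 on the log2 scale; under median centring it reaches 0.34 (top) and -0.26 (bottom) for the brightest step, and after quantile normalization it stays near 0 above a signal of 5.

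The mean level of the 82 members also differed between arrays of a group. In PVN of SHR it was 9.82, 9.64, 9.51, 9.36 and 9.32, and the array with the lowest median before centring, replicate 1 at 35.9, had the highest mean level, while replicate 4, at 46.5, had the second lowest. Replicate 1 held the highest value of its group for 71 of 86 members. Without it, 8 members were lower in PVN of SHR than of WKY in place of 1. In SON of WKY replicate 4 stood highest, at 10.09, and held the highest value for 78 of 86 members. After quantile normalization the means ran between 9.73 and 9.89 in SON of SHR, 9.68 and 9.83 in SON of WKY, 9.55 and 9.71 in PVN of SHR, and 9.62 and 9.70 in PVN of WKY.

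**Figure D5:**
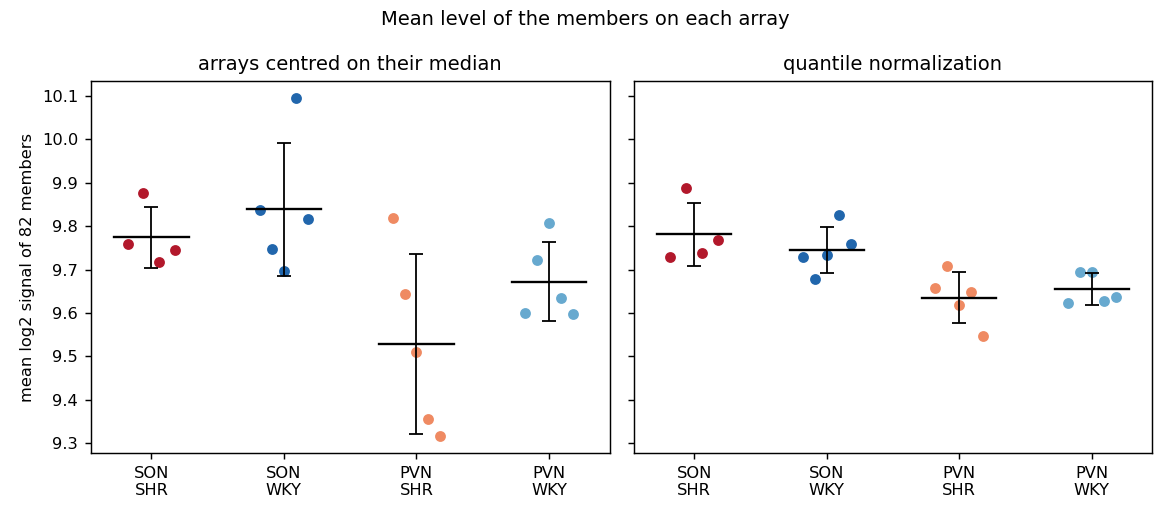
Mean log2 signal of 82 members (y axis) on each array, with group mean and SD, under median centring (left) and quantile normalization (right), in SON of SHR, SON of WKY, PVN of SHR and PVN of WKY (x axis). The SD within PVN of SHR is 0.21 on the left and 0.06 on the right.

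Whether the difference between nuclei itself differed between strains was tested as an interaction, taking the SHR minus WKY difference of the SON less the one of the PVN. It was called for 0 of 82 members in limma, against 0.0117% of all probe sets higher and 0.0702% lower, and 0 members passed at an unadjusted p under 0.05, against 3.0% of all probe sets higher and 3.85% lower. The member values ran between -0.35 ± 0.35 for Cox7a1 (adjusted p = 0.902) and 0.32 ± 0.17 for Uqcrh (adjusted p = 0.776). No member was thus shown to differ between nuclei by more in one strain than in the other.

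Other genes of mitochondria and energy metabolism were counted by list, to be read against 13.7% of all probe sets higher and 15.7% lower in the SON of SHR, and 13.2% higher and 13.7% lower in that of WKY. Of 39 further assembly factors tested, 4 were higher and 2 lower in the SON of SHR, and 5 were higher in the SON of WKY. Cox14, a complex IV assembly factor, was higher in the SON by 0.85 in SHR and 0.66 in WKY (limma adjusted p = 0.000344 and 0.00228). Between strains, Sdhaf4, an assembly factor of succinate dehydrogenase, was higher by 0.51 in PVN of SHR (adjusted p = 0.0368). That call was lost without SHR replicate 2 or 3 or WKY replicate 1, 2, 4 or 5 (adjusted p up to 0.103). In the SON the main analysis did not call Sdhaf4. There it was higher in SHR by 0.43 to 0.60 over 18 alternatives and called in 7 of them. Ttc19, of complex III, had a difference of -0.47 in the SON (adjusted p = 0.0151). Of 73 mitochondrial ribosomal proteins, 9 were higher (12.3%) and 1 lower in the SON of SHR, and 11 higher (15.1%) and 0 lower in the SON of WKY, shares close to those of all probe sets. Of 22 import and carrier proteins, 5 (22.7%) were higher in SHR and 4 (18.2%) in WKY. In the tricarboxylic acid cycle and pyruvate dehydrogenase list 3 of 17 were higher and 1 lower in SHR, 2 higher and 2 lower in WKY, and Pdhx of the pyruvate dehydrogenase complex was the 1 gene called between strains, at -0.64 in the SON (adjusted p = 0.00693). Of 14 glycolytic genes 1 was higher and 1 lower in each strain, and of 17 biogenesis genes 2 were higher and 1 lower in SHR, and 2 higher and 2 lower in WKY. Of 14 genes of uncoupling and mitochondrial dynamics 0 were higher and 1 lower in SHR, and 0 were called in WKY, where 1 passed an unadjusted p under 0.05. Cytosolic ribosomal proteins, another group of bright probe sets, were higher in the SON for 38 of 43 in SHR and 19 of 43 in WKY.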

How the data were processed

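RNA of pooled SON and PVN from SHR and WKY rats was measured on 19 one-colour arrays, grouped by their labels (4, 5, 5 and 5). The deposited values are intensities, MAS 5.0 signals on a linear scale that the authors made from the scans. Of 31099 probe sets, 57 controls were left out, 20826 had 1 symbol (14217 genes) and 436 several. Arrays were centred on their median, values below a floor at the 10th percentile (3.75, log2 1.91) were raised to it, and log2 was taken. A probe set was tested if the mean log2 signal of any group in its fit reached the median of all probe sets. For SON against PVN this could be any of the 4 groups, also one of the other strain. The filter left 16104 in the PVN, 16190 in the SON and 17095 in the fit of all groups. The methods' present calls and 2-fold limit were not used for calls.

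Limma 3.58.1 in R 4.3.3 (lmFit, eBayes, two-sided) was fitted within each nucleus for SHR against WKY and over all 4 groups for SON against PVN and the interaction, with Benjamini-Hochberg adjustment over all probe sets tested; scripts were first tested on simulated data. Alternatives were the scaling, filter, floor, moderation, samples in the fit, replicate block, probe set choice, the methods' t-test and each array left out. The number of arrays limits the precision, and p-values measure the spread between pools. Members and lists were chosen with earlier results of these data known. Genes named were the 5 largest called rises and falls per comparison, the brightest of each complex, paired isoforms and succinate dehydrogenase, and up to 4 called genes of each other list; others are said to be chosen later. The labels do not say whether samples with the same replicate number share animals, and the main fits did not pair them.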

Additional observations from a re-analysis of the deposited data

Results flagged for a closer look

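Among 104 groups of arrays examined for 25 named members, 2 single arrays stood apart from their group, both for Cox8b, where chance gives about 1 in 20 groups. SON of SHR replicate 3 had a Cox8b log2 signal of 2.25, against 1.91, the floor, on the other 3 arrays. Those 3 arrays had been raised to the floor and so had no spread, and any value above it would stand apart. Their signals as deposited were 3.28, 3.80 and 3.00, against 4.88 in replicate 3. PVN of WKY replicate 1 had 3.45, against 1.91 to 2.11 on the other arrays, most of them also raised to the floor. Cox8b was under the filter in every comparison.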

How the results depend on the processing

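Quantile normalization turned the median member difference between strains in the SON to 0.039 and Cox8a, SON against PVN in SHR, to -0.061. The median kept its sign in the other comparisons under every alternative. With the values as deposited, 6 members were called between strains in the PVN (0 higher, 6 lower), 40 between nuclei in SHR and 24 in WKY. With the 2 groups of SHR alone 16 were called. Between strains 0 members were called by the methods' t-test, with or without the 2-fold limit, in either nucleus, and in the SON 0 with no filter and 0 without probe sets that can bind several transcripts. Leaving out 1 array gave 0 to 8 calls between strains in the PVN and 0 to 1 in the SON, 15 to 42 between nuclei in SHR, 4 to 15 in WKY and 0 to 0 for the interaction. The medians then ran from -0.24 to -0.11, -0.12 to -0.01, 0.16 to 0.30, 0.08 to 0.18 and 0.04 to 0.17.

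Deviations of samples with the same replicate number had correlations between -0.23 and 0.17. Between SON and PVN of SHR these correlations were all above 0, from 0.04 to 0.17. Whether such samples share animals was not tested. With the replicate block 0 members were called between strains in either nucleus, 17 between nuclei in SHR and 12 in WKY. The causes of these changes were not tested.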
